A study of Mus musculus with 12 samples.

Results

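Type I interferons are cytokines that cells release on sensing viral or misplaced nucleic acid. They bind the receptor pair IFNAR1 and IFNAR2, whose kinases activate transcription factors that switch on interferon-stimulated genes by binding a short DNA element upstream of them. In brain, microglia are among the best-known responders. Here 9 such genes (Ifit1, Ifit3, Ifi27, Isg15, Irf7, Oasl2, Bst2, Ifitm3 and Usp18) were followed by name among the 24985 genes counted, to ask whether an interferon response was present 6 months after tau seeding and whether an acetate diet altered it. All 9 were in the count table and all 9 passed the filter on low counts, as did 14742 genes in total.

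RNA came from the right dorsal hippocampus of 12 C57Bl6/J mice, 3 in each of 4 groups. Mice were injected on 1 side at 6 months of age with PBS or with 1 µg AD-Tau, tau aggregates purified from brains of people with Alzheimer's disease. They ate either a control chow (TestDiet) or a high acetate chow (LabDiet 5001 with 5% Na-acetate), and were killed 24 hours after a remote memory test. The study names these mice as wild type and as representative animals picked from each group, taken on the seeded side of the brain. The labels name the control chow by its maker alone, and the study describes it as matched to the acetate chow in calories. Below, PBS and tau mice are named by their injection, and control-fed and acetate-fed by their chow. Total counts were 12983233 to 20218340 per mouse. The labels give every mouse as male, and the study names male mice for bulk RNA sequencing and female mice for behaviour. However, Xist, which is made from an inactive X, had 13583 to 25991 counts in every library. The 49 Y-linked genes in the table had 0 counts in total. By these reads the libraries came from female mice, in conflict with the label. As defining markers of the tissue, 3 pan-neuronal genes summed to 3811 to 5112 CPM (counts scaled to a common library size), and all 5 listed markers each of CA1, CA3 and dentate granule neurons had reads in every group.

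The element bound by these factors carries a pair of GAAA blocks. Promoter windows of RefSeq (GRCm38.p6, 250 bases before to 50 bases after the transcript start) were at hand for 7 of the 9 genes, all but Ifi27 and Usp18, and were searched on both strands for GAAA, any 2 bases and GAAA again, where overlapping matches count separately. Of these 7 windows, 5 held a match (71.4%), against 3.44% of the 32851 windows in the table and 3.99% of the 27025 genes they cover. The match was not particular to these genes. It was present in 9 of 11 genes induced mainly by interferon gamma (81.8%), 15 of 36 other type I targets (41.7%) and 1 of 8 negative regulators (12.5%). The 4 stretches below are shown because they carry the matches upstream of the start, in capitals, on the strand of the gene and 5′ to 3′.
Ifit1, chr19:34640760-34640838, plus strand: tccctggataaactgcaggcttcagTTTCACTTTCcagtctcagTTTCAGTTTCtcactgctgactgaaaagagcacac
Ifit3, chr19:34583348-34583441, plus strand: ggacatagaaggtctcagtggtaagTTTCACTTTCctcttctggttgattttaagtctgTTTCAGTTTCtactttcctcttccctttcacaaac
Isg15, chr4:156200850-156200921, minus strand: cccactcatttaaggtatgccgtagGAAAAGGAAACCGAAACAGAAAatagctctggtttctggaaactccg
Bst2, chr8:71537562-71537627, minus strand: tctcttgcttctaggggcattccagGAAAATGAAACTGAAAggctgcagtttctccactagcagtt
Ifit1 and Ifit3 each hold 2 separate matches that read as the reverse complement, beginning 104 and 85 bases before the start in Ifit1 and 156 and 122 bases before it in Ifit3. In Isg15 3 matches overlap, from 78 bases before the start, and in Bst2 2 overlap, from 130 bases before it. Ifitm3 had 2 matches just past its start, and Irf7 and Oasl2 had none in this window, which says only that these letters are not in it. A match is a description of the sequence and does not show that the element was bound in these mice.

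The 9 genes were expressed at low levels, with the exception of Ifi27. Per length of exon, over all 12 mice, Ifi27 had 35.9 ± 3.19 RPKM (CPM divided by exon length in kilobases, SD, n = 12 mice), Ifitm3 10.2 ± 3.06, Ifit3 4.31 ± 1.76, Bst2 3.79 ± 1.36, Isg15 1.41 ± 0.713, Oasl2 1.32 ± 0.492, Ifit1 1.04 ± 0.427, Irf7 0.826 ± 0.390 and Usp18 0.586 ± 0.251 RPKM. Only Ifi27 stood clear of its neighbour in this order, at 29.7 to 39.8 RPKM in single mice against 7.33 to 17.8 RPKM for Ifitm3. Every other neighbouring pair overlapped. In raw reads the scarcest were Isg15, with 6 to 48 counts per mouse, and Usp18, with 8 to 45 counts. Values below are CPM after TMM normalization, and they compare a gene between mice, not genes with each other. In bulk tissue, fewer cells of a type and less RNA per cell cannot be told apart.

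**Figure D1:**
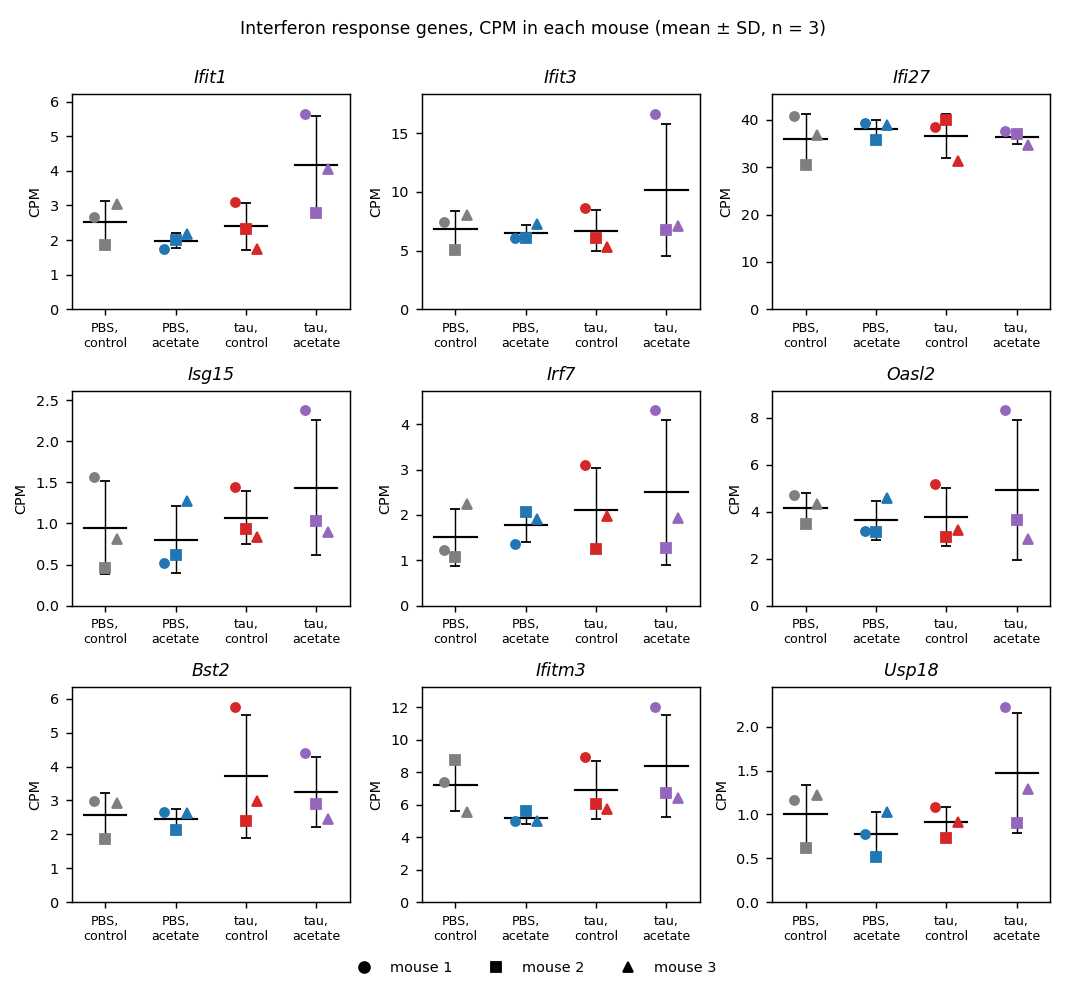
CPM (linear axis from 0) of each of the 9 interferon response genes in each of 12 mice, by injection and diet. Points are single mice, the symbol gives the mouse number, and bars are the mean ± SD of 3 mice. In 7 of the 9 panels the highest point is mouse 1 of the tau-injected acetate group.

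The first group were the antiviral effectors. Ifit1 (ENSMUSG00000034459.8, chromosome 19 of GRCm38, 34640871 to 34650009) encodes a protein that binds foreign RNA at its 5′ end and blocks its translation. It had 2.68, 1.85 and 3.05 CPM in control-fed PBS mice 1 to 3, 1.74, 2.01 and 2.17 CPM in acetate-fed PBS mice, 3.10, 2.32 and 1.75 CPM in control-fed tau mice and 5.65, 2.78 and 4.05 CPM in acetate-fed tau mice. On acetate all 3 tau-injected mice lay above all 3 PBS-injected mice, whereas on the control diet the groups overlapped. Its log2 fold change for tau on the acetate diet was 1.08 (SE 0.27, 95% interval 0.51 to 1.66, adjusted p = 0.170 by the quasi-likelihood test of edgeR, adjusted after Benjamini and Hochberg over all genes), short of the threshold of 0.1. On the control diet it was -0.09 (SE 0.29, edgeR adjusted p = 0.962). Of the 9 genes, Ifit1 came nearest to a call, and its call depended on the tool and on 1 mouse. DESeq2 called it on acetate (log2 fold change 1.08, DESeq2 adjusted p = 0.0725), and edgeR called it when acetate-fed tau mouse 2 was left out (1.30, adjusted p = 0.0419). Without acetate-fed tau mouse 1 its value was 0.78 (SE 0.28, edgeR adjusted p = 0.430).

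Ifit3 (chromosome 19, 34583531 to 34588731), a partner of Ifit1 in the same gene cluster, had 7.39, 5.02 and 7.99 CPM in control-fed PBS mice, 6.07, 6.03 and 7.28 on acetate, 8.65, 6.04 and 5.34 CPM in control-fed tau mice and 16.7, 6.72 and 7.13 on acetate. Acetate-fed tau mouse 1 stood far above the rest, and its 2 group mates lay within the range of the PBS-injected mice. The tau difference on acetate was 0.68 (SE 0.34, edgeR adjusted p = 0.529) with this mouse and 0.10 (SE 0.21, adjusted p = 0.956) without it. Ifit3 shares 51.2% of its distinct 50-base words with the neighbouring copy Ifit3b, so reads could be split between the pair or lost, and its counts are uncertain to that extent. Ifit1 shares 7.13% with Ifit1bl1 and Ifit1bl2. Ifit3b had the same outlying mouse, with 163 counts there and 33 to 81 counts in the other 11 mice, while Ifit1bl1 did not (51 counts, against 23 to 58).

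Ifitm3 (chromosome 7, 141009586 to 141010770), which encodes a membrane protein that hinders the fusion of viruses with the cell, had 7.39, 8.73 and 5.55 CPM in control-fed PBS mice and 4.97, 5.62 and 4.98 on acetate. In tau-injected mice it had 8.94, 6.04 and 5.72 CPM on the control diet and 12.0, 6.72 and 6.42 on acetate. It was the other gene whose groups did not overlap for tau on the acetate diet, with a log2 fold change of 0.70 (SE 0.25, edgeR adjusted p = 0.345). Without acetate-fed tau mouse 1 the difference was 0.34 (SE 0.21, edgeR adjusted p = 0.731). The acetate-fed PBS mice were low in this gene, at -0.47 (SE 0.26, edgeR adjusted p = 0.320) from the control-fed ones. Of its 50-base words 10% recur in Ifitm1, Ifitm2 or pseudogenes. Ifitm2 had 2.97 CPM in acetate-fed tau mouse 1, within the 2.78 to 5.40 CPM of the other mice.

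Bst2 (chromosome 8, 71534255 to 71537456) encodes tetherin, which holds budding virus at the cell surface. Its values were 2.97, 1.85 and 2.91 CPM in control-fed PBS mice, 2.65, 2.11 and 2.62 on acetate, 5.77, 2.39 and 2.98 CPM in control-fed tau mice and 4.41, 2.90 and 2.44 on acetate. The highest mouse was control-fed tau mouse 1, and the group ranges overlapped in all 4 comparisons between pairs of groups. Averaged over both diets the tau difference was 0.47 (SE 0.22, edgeR adjusted p = 0.791), and it ranged from 0.23 without control-fed tau mouse 1 to 0.59 without control-fed tau mouse 2. Oasl2 (chromosome 5, 114896936 to 114912234), a member of the oligoadenylate synthetase family, had 4.72, 3.48 and 4.33 CPM in control-fed PBS mice, 3.16, 3.15 and 4.60 on acetate, 5.19, 2.92 and 3.20 CPM in control-fed tau mice and 8.33, 3.63 and 2.83 on acetate. The third acetate-fed tau mouse was the lowest of the 12 and the first was the highest, so this group spanned the whole range. The tau difference of Oasl2 on acetate was 0.47 (SE 0.36, edgeR adjusted p = 0.708), and -0.16 (SE 0.27, adjusted p = 0.941) without mouse 1.

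Isg15 and Usp18 form a pair, since Isg15 encodes a ubiquitin-like protein that is attached to other proteins and Usp18 encodes the protease that removes it and also damps the interferon receptor. Isg15 (chromosome 4, 156199424 to 156200818) had 1.57, 0.463 and 0.813 CPM in control-fed PBS mice, 0.517, 0.619 and 1.28 on acetate, 1.44, 0.929 and 0.839 CPM in control-fed tau mice and 2.38, 1.03 and 0.899 on acetate. Usp18 (chromosome 6, 121245906 to 121270917) had 1.16, 0.618 and 1.22 CPM in control-fed PBS mice, 0.775, 0.516 and 1.02 on acetate, 1.08, 0.730 and 0.916 CPM in control-fed tau mice and 2.23, 0.907 and 1.28 on acetate. Values spread within groups in both genes, least so for Usp18 in control-fed tau mice (SD 0.18 CPM). There the counts were 15, 11 and 12, and their 95% counting intervals overlapped. In both genes the top value was again acetate-fed tau mouse 1. The 95% counting interval of Isg15 in that mouse was 1.75 to 3.15 CPM (exact Poisson, counting error only), which overlaps the 0.881 to 2.23 CPM of control-fed tau mouse 1. For tau on the acetate diet the log2 fold change was 0.98 (SE 0.39, edgeR adjusted p = 0.397) in Usp18 and 0.88 (SE 0.47, adjusted p = 0.534) in Isg15. Without acetate-fed tau mouse 1 these were 0.52 (SE 0.42) and 0.28 (SE 0.50), with edgeR adjusted p = 0.821 and 0.950.

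Irf7 (chromosome 7, 141262706 to 141266481) encodes the transcription factor that amplifies interferon production once a response has begun. It had 1.22, 1.08 and 2.23 CPM in control-fed PBS mice, 1.36, 2.06 and 1.92 on acetate, 3.10, 1.26 and 1.98 CPM in control-fed tau mice and 4.31, 1.27 and 1.93 on acetate. In each tau-injected group mouse 1 was high and the other mice lay among the PBS-injected ones. The tau difference was 0.47 (SE 0.47, edgeR adjusted p = 0.812) on the control diet and 0.51 (SE 0.43, edgeR adjusted p = 0.732) on acetate, and the latter was -0.17 without acetate-fed tau mouse 1. Ifi27 (chromosome 12, 103434211 to 103440239), which encodes a small membrane protein, did not share this pattern. Its values were 40.8, 30.4 and 36.8 CPM in control-fed PBS mice, 39.3, 35.8 and 39.0 on acetate, 38.5, 40.1 and 31.3 CPM in control-fed tau mice and 37.6, 37.0 and 34.7 on acetate. The highest mouse had 1.34 times the lowest, against 2.42 to 5.13 times in the other 8 genes. With 394 to 759 counts per mouse Ifi27 was also the most precise of the 9, and its 95% intervals for tau ran from -0.19 to 0.23 on the control diet and from -0.27 to 0.15 on acetate. Its paralog Ifi27l2a had 1 to 8 counts per mouse, too few to test.

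Comparison by comparison, 0 of the 9 genes passed the edgeR threshold in any of the 6 comparisons. For tau on the control diet, where 0.0136% of all genes tested passed in either direction, 0 of 9 also had an unadjusted p below 0.05 (9.65% of all genes did), 4 of 9 lay above 0 (49.7%) and the median log2 fold change was -0.04, with -0.00086 over all genes. DESeq2 called 0 of 9 there as well, with no adjusted p for 3 of them. The 95% intervals of Isg15, from -0.93 to 1.17, Irf7, from -0.52 to 1.47, and Bst2, from -0.16 to 1.17, held a log2 rise of 1, or 2-fold, whereas for Ifit1 the interval ended at 0.53 and for Ifitm3 at 0.48. For tau on the acetate diet, where 0.136% of all genes passed, 8 of 9 lay above 0 (48.8% of all genes did), 3 of 9 had an unadjusted p below 0.05 (10.3% of all genes), each of them higher, and the median was 0.68. Groups did not overlap in 2 of 9, Ifit1 and Ifitm3, while 7.51% of all genes had non-overlapping groups with tau higher. DESeq2 called 1 of 9, Ifit1. Averaged over both diets the median was 0.41, 8 of 9 lay above 0 (49.5% of all genes), 2 of 9 (Ifit1 and Bst2) had an unadjusted p below 0.05 (6.29%), DESeq2 called 0 of 9, and 0% of all genes passed.

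**Figure D2:**
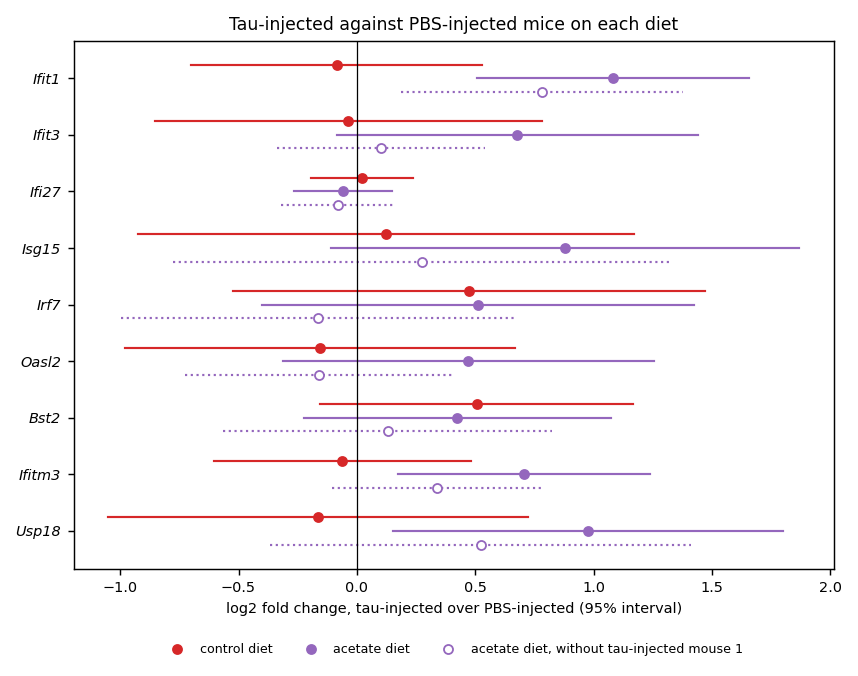
Log2 fold change of tau-injected over PBS-injected mice for each gene, with 95% intervals from edgeR. Filled points use all 12 mice, in red for the control diet and purple for the acetate diet, and open points with dotted lines repeat the acetate diet without acetate-fed tau mouse 1. Purple filled points lie right of red ones in 7 of 9 genes, and open points lie left of the filled purple ones in all 9.

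For the acetate diet itself, 0 of 9 genes had an unadjusted p below 0.05 in PBS-injected mice (20.8% of all genes did), where 8.84% of all genes passed the adjusted threshold, more than in any of the other 5 comparisons. There 2 of 9 lay above 0 (50.9% of all genes) and 7 below, with a median of -0.21. Ifitm3 lay furthest from 0 at -0.47, followed by Usp18 at -0.42 (SE 0.42, edgeR adjusted p = 0.620) and Ifit1 at -0.36 (SE 0.29, edgeR adjusted p = 0.515). DESeq2 called 0 of 9 in this comparison. In tau-injected mice, where 0.0611% of all genes passed, 7 of 9 lay above 0 (50.3% of all genes) with a median of 0.41. An unadjusted p below 0.05 (10.9% of all genes) was found for 1 of 9, Ifit1 (0.80, SE 0.27, edgeR adjusted p = 0.292). DESeq2 called 0 of 9 here and gave 7 of them no adjusted p. Whether the effect of injection differed by diet was tested as an interaction term. It had a median of 0.71 over the 9 genes, against -0.0053 over all genes, and 0 of 9 passed while 1.56% of all genes did. In it 7 of 9 lay above 0 (48.8% of all genes). An unadjusted p below 0.05 (13% of all genes) was reached by Ifit1, at 1.17 (SE 0.40, edgeR adjusted p = 0.199), and Ifitm3, at 0.77 (SE 0.36, edgeR adjusted p = 0.382). DESeq2 called 0 of 9 for the interaction. The comparisons share mice: the medians for tau on acetate, for acetate in tau-injected mice and for the interaction all draw on the same 3 acetate-fed tau mice.

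These 3 mice differed widely from each other. Mouse 1 was the highest of the 12 in 7 of 9 genes (77.8%), was second in Bst2, and was singled out after its values were seen. The mouse was the highest of the 12 in 8.78% of all genes tested, and the corresponding share in the other 11 mice lay between 5.79% and 12.3%. As the mean log2 difference of the 9 genes from their 12-mouse means, mouse 1 stood at 0.92, mouse 2 at -0.06 and mouse 3 at 0.01. The next mouse of the 12 was control-fed tau mouse 1 at 0.42, which was above the median in 9 of 9 genes and second in 4. The lowest was control-fed PBS mouse 2 at -0.42, the bottom mouse in 5 genes. Group means of this score were -0.08 ± 0.30 for PBS on control chow, -0.21 ± 0.19 for PBS on acetate, -0.00094 ± 0.36 for tau on control chow and 0.29 ± 0.55 for tau on acetate (SD, n = 3 each). The library of mouse 1 was the deepest, with 20218340 counts, and its TMM factor was 0.999. Leaving it out moved the median of the 9 genes from 0.68 to 0.13 for tau on acetate, from 0.41 to -0.06 for acetate in tau-injected mice, from 0.71 to 0.14 for the interaction and from 0.41 to 0.15 for tau over both diets. In the fit without it 1 of 9 genes, Ifit1, kept an unadjusted p below 0.05 for tau on acetate (8.33% of all genes did), and 0 of 9 were called (0.0738% of all genes). Ifit1 also kept it in the interaction, at 0.87 (SE 0.39, edgeR adjusted p = 0.431, 10.7% of all genes). Ifitm3 reached it for acetate in PBS-injected mice, at -0.46 (SE 0.19, edgeR adjusted p = 0.168, 21% of all genes). For acetate in tau-injected mice 0 of 9 did (8.46% of all genes).

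Inside the groups the 9 genes varied together from mouse to mouse. With each gene set as its deviation from its group mean, all 36 pairs of the 9 genes correlated above 0 over the 12 mice, with a median Pearson r of 0.71 and a range of 0.04 to 0.93. Without acetate-fed tau mouse 1, 33 of 36 pairs stayed above 0, with a median of 0.58 and a range of -0.30 to 0.90. Each gene was also set against the mean of the other 8 over all mice. Group means were not removed there, so these r values mix differences between and inside groups. Ifit3 followed most closely (r = 0.95, and 0.90 without that mouse), then Oasl2 (0.86 and 0.67), Usp18 (0.86 and 0.70), Isg15 (0.85 and 0.75), Ifit1 (0.82 and 0.63), Bst2 (0.77 and 0.78) and Irf7 (0.73 and 0.46). Ifitm3 followed less closely, at 0.62 and 0.20, and Ifi27 least, at 0.31 and 0.39. These are descriptions over 12 mice that share groups and normalization, and no test was made. Pairs of other genes were not correlated in this way, so the values cannot tell whether this is particular to the 9 genes.

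Among genes outside the 9, those whose log2 CPM over the 12 mice was most like the mean of the 9 included Glmp, Lgals3bp, Igtp and Gbp6. Glmp, which encodes a lysosomal membrane protein and is in none of the interferon lists, had r = 0.92 (Spearman rho 0.94), and r = 0.87 without the 2 mice furthest from the median, acetate-fed tau mouse 1 and control-fed tau mouse 1. Its range was narrow, from 25.3 to 31.3 CPM. Lgals3bp, a secreted glycoprotein gene from the list of type I targets, had r = 0.91 (rho 0.82). Igtp and Gbp6, which encode GTPases induced mainly by interferon gamma, each had r = 0.90 (rho 0.71 and 0.76). Without the same 2 mice, these 3 had r = 0.62, 0.61 and 0.58. The genes were chosen for these values, so no test applies.

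The rest of the pathway was read from lists of known genes, from ligand to target. Interferon messages themselves were almost undetectable. Of 21 ligand genes, 19 had 0 counts in all 12 mice, Ifnab had 1 count in acetate-fed PBS mouse 2, and Ifng, the gene of interferon gamma, had 4 counts, all of them in acetate-fed tau mouse 1. Among receptors and transducers (7 of 7 tested) 0 passed in any comparison, and the gene with the smallest p for tau over both diets was Ifnar1, a receptor chain, at 0.11 (SE 0.04, edgeR adjusted p = 0.759). On the control diet Ifnar1 had 52.9, 52.9 and 52.2 CPM in tau-injected mice and 48.0, 45.4 and 42.7 CPM in PBS-injected mice (0.22, SE 0.06, edgeR adjusted p = 0.324), and on acetate the groups overlapped (0.01, SE 0.06, edgeR adjusted p = 0.984). Of the sensors and adaptors of nucleic acid (12 of 13 tested) 0 passed. The smallest p for tau over both diets was that of Ikbke, a kinase upstream of interferon production, at 0.57 (SE 0.30, edgeR adjusted p = 0.806), from 5 to 28 counts per mouse. Of the negative regulators (8 of 10 tested) 0 passed, with Rnaseh2c, a subunit of an enzyme that clears RNA-DNA hybrids, at 0.18 (SE 0.08, edgeR adjusted p = 0.780). Their medians for tau over both diets were 0.03 for receptors, 0.15 for sensors and -0.00015 for negative regulators, against -0.0011 over all genes.

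Other targets of type I interferon came next. Of 46 further interferon-stimulated genes 36 were tested, and 0 passed for tau on either diet. For tau on acetate 34 of 36 lay above 0 (48.8% of all genes), with a median of 0.27, and 11 had an unadjusted p below 0.05 (10.3% of all genes). Without acetate-fed tau mouse 1, 28 of 36 lay above 0 (49.5% of all genes in that fit), the median was 0.14, and 2 were higher at an unadjusted p below 0.05 (3.85%). On the control diet 21 of 36 lay above 0 (49.7% of all genes) with a median of 0.06. Over both diets the smallest p was that of Ifi44, an interferon-induced gene, at 1.13 (SE 0.39, edgeR adjusted p = 0.736), from 1 to 18 counts per mouse. The chemokine gene Cxcl10, named after its values were seen, had 67 counts in acetate-fed tau mouse 1 and 4 to 15 in every other mouse. The 1 pathway gene that edgeR called on all 12 mice in any comparison was Ifit1bl2, a sequence relative of Ifit1, in PBS mice, acetate against control diet, where 8.84% of all genes were called. It had 18, 12 and 15 counts on the control diet and 6, 4 and 9 counts on acetate, a log2 fold change of -1.38 (SE 0.47, edgeR adjusted p = 0.0982). This call was lost in 9 of 12 fits that left out a single mouse (-1.77 to -1.04, adjusted p = 0.0704 to 0.377), held when acetate-fed PBS mouse 3 or acetate-fed tau mouse 1 or 3 was the one left out, and was not made by DESeq2 (adjusted p = 0.136). Among the remaining near copies, Oasl1 had 11 counts in acetate-fed tau mouse 1 and 0 to 4 elsewhere, Ifitm1 had 3 to 18 counts in all, and Ifi27l2b had 0.

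The set induced mainly by interferon gamma, of which 15 of 17 genes were tested, set acetate-fed tau mouse 1 apart the most. It was the highest mouse in 14 of these 15 genes, against 19 of 36 other type I targets, 3 of 7 receptors and transducers, 4 of 12 sensors and 0 of 8 negative regulators. Over all genes tested the share was 8.78%. Whether an interferon raised these genes, and which one, was not tested. Igtp had 275 counts in acetate-fed tau mouse 1 and 29 to 61 in the other 11 mice, and Gbp2, a guanylate-binding GTPase named after its values were seen, had 364 against 27 to 89. The median for tau on acetate was 0.74 with that mouse, with 12 of 15 genes at an unadjusted p below 0.05 (10.3% of all genes) and 0 called (0.136%). Without it the median was 0.26, and 0 of 15 had an unadjusted p below 0.05 (8.33% of all genes in that fit). On the control diet the median was -0.03. Gbp3, which had the smallest p over both diets, lay at 0.41 (SE 0.17, edgeR adjusted p = 0.768). Cd74, the invariant chain of MHC class II, also named after its values were seen, had 122, 32 and 32 counts (7.10, 2.47 and 2.17 CPM) in control-fed PBS mice and 18, 29 and 26 counts (1.16 to 1.66 CPM) in acetate-fed ones. In tau-injected mice it had 24, 29 and 36 counts on control chow and 123, 42 and 38 counts on acetate. The first control-fed PBS mouse and the first acetate-fed tau mouse thus stood far above the other 10. It lay at -1.47 (SE 0.52, edgeR adjusted p = 0.135) for acetate in PBS-injected mice and at 2.29 (SE 0.72, edgeR adjusted p = 0.194) for the interaction, and DESeq2 called it in both (adjusted p = 0.0209 and 0.0190). Without control-fed PBS mouse 1 DESeq2 called neither, at -0.69 (adjusted p = 0.450) and 1.49 (adjusted p = 0.186). Without acetate-fed tau mouse 1 the interaction was 1.69 (DESeq2 adjusted p = 0.189), while edgeR then called Cd74 for acetate in PBS-injected mice at -1.46 (adjusted p = 0.0593). The DESeq2 call for acetate in PBS-injected mice was also lost without acetate-fed PBS mouse 1 or 2 (adjusted p = 0.111 and 0.109).

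**Figure D3:**
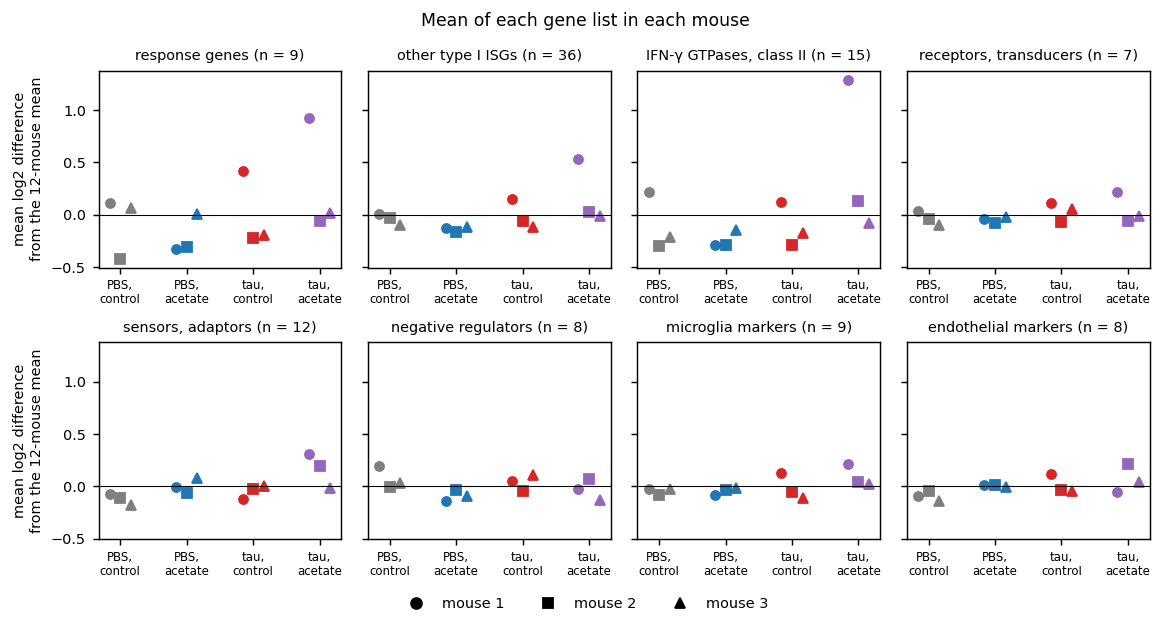
Mean log2 difference from the 12-mouse mean for each gene list in each mouse, by injection and diet, with the number of genes tested in each title. Points are single mice and the symbol gives the mouse number. Acetate-fed tau mouse 1 stands at 0.92 for the 9 response genes and at 1.29 for the interferon gamma set, while endothelial markers show no such point.

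Cell type markers were set beside these values. The summed level of 9 microglia markers was 398 to 419 CPM in control-fed PBS mice, 401 to 418 CPM on acetate, 404 to 453 CPM in control-fed tau mice and 423 to 490 CPM on acetate. Acetate-fed tau mouse 1 had the highest sum, 490 CPM, and control-fed tau mouse 1 came next with 453 CPM. The mean log2 difference of the microglia markers in mouse 1 was 0.22, against 0.92 for the 9 response genes, and 4 of 9 markers had their highest value there. For tau on acetate 5 of 9 microglia markers were higher at an unadjusted p below 0.05 (10.3% of all genes in either direction) with a median of 0.17, and without that mouse 3 of 9 were (8.33%) with a median of 0.07. With all mice, 3 of 5 oligodendrocyte (median 0.47), 3 of 5 choroid plexus (median 2.22) and 2 of 5 astrocyte markers were also higher at that level. For 8 endothelial markers it was 1 higher and 1 lower, and for 6 meningeal fibroblast markers 1 higher. Mural and neuronal markers had 0. Endothelial markers (8 genes) summed to 209 to 256 CPM over all mice, with 216 CPM in mouse 1. Of 5 T cell markers 4 were in the table and together had 1 to 11 counts per mouse, with 6 in mouse 1. Of 5 blood markers the haemoglobin genes were at 0 in all 12 libraries, so they give no measure of blood content here. Why they were at 0 was not tested. Alas2 had 28 to 80 counts per mouse, with 58 in mouse 1. Choroid plexus markers were highest in a different mouse, acetate-fed tau mouse 3, at 477 CPM against 64.4 to 202 CPM in the others, and mouse 1 had 80.2 CPM. Oligodendrocyte markers (5 genes) differed more between groups, at 6514 to 8406 CPM in control-fed PBS mice, 4053 to 5600 CPM in acetate-fed PBS mice, 4302 to 5206 CPM in control-fed tau mice and 4898 to 7894 CPM in acetate-fed tau mice. Acetate-fed tau mouse 1 had the 7894 CPM, with a mean log2 difference of 0.50 for these markers. Control-fed PBS mouse 1 had the 8406 CPM, at 0.58. For acetate in PBS-injected mice, neuronal and other markers differed between the groups. EdgeR called 3 of 5 CA1 markers higher, with sums of 482 to 639 CPM on control chow and 765 to 1028 CPM on acetate. It called 4 of 5 CA3 markers lower, with 689 to 790 CPM on control chow and 370 to 573 CPM on acetate (8.84% of all genes were called). Of the dentate granule markers 0 of 5 were called. Called lower were also 1 of 3 pan-neuronal, 1 of 5 oligodendrocyte, 1 of 5 astrocyte and 1 of 5 choroid plexus markers. Called higher were 1 of 8 endothelial and 1 of 5 mural markers. The cause of these differences was not tested. For tau on the control diet, where 0 of these markers were called, 5 of 5 mural markers lay above 0 (49.7% of all genes) with a median of 0.25 and 4 at an unadjusted p below 0.05 (9.65% of all genes). In the same comparison 6 of 6 meningeal fibroblast markers lay above 0, with a median of 0.42 and 2 at an unadjusted p below 0.05. The oligodendrocyte markers lay further from 0, with 5 of 5 below it, a median of -0.63 and 5 at an unadjusted p below 0.05. CA1 markers lay above 0 in 5 of 5 (median 0.53, 3 at an unadjusted p below 0.05). CA3 markers lay below 0 in 5 of 5 (median -0.32, 1 at an unadjusted p below 0.05). The part of microglia, oligodendrocyte, neuronal, mural, fibroblast and other markers in the levels of the 9 genes was not tested.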

How the data were processed

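Poly(A) RNA-seq was made from 12 mice, 1 library each. The authors aligned reads to GRCm38 with STAR 2.5.2a, counted them over exons on the reverse strand with HTSeq 0.9.1, and deposited raw counts per gene, not normalized. The gene annotation they used is not given in the sources used here. Groups came from the sample titles.

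Counts were filtered (filterByExpr, minimum count 10, minimum total 15), normalized by TMM and fitted with edgeR 4.0.16 (robust quasi-likelihood F test, R 4.3.3) as 1 mean per group over 12 mice, leaving 8 residual degrees of freedom. Benjamini-Hochberg adjustment ran over 14742 genes, and an adjusted p-value below 0.1 was called. SEs were derived from the F statistic, and list scores from log2 CPM with a prior count of 2. The common biological coefficient of variation was 7.25%. Alternatives were DESeq2 1.42.0, its size factors, no filter, a threshold of 0.05, the 6 compared mice alone, the replicate number as a block, and each mouse left out. Fits without acetate-fed tau mouse 1 for the pathway and marker lists and for correlations, all alternatives for Ifit1bl2, and each mouse left out for Cd74, were added after the data were seen.

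The 9 genes, the lists and the markers were chosen with earlier results of these data known. Named besides the 9 genes were list members past the threshold, the smallest p per pathway list for tau over both diets, near copies of the 9, and the 5 genes most like their mean, of which 1 is not reported here. Positions and exon lengths came from GENCODE release 21 on GRCm38 (24534 of 24985 symbols matched). The functions were tested on simulated data. Replicate pairs differed by more than counting noise (chi-square per degree of freedom 3.45 or more). Replicate numbers are shared between groups, and mice were not treated as paired in the main fit. Of 18 same-number pairs 2 correlated above 0.1 (r from -0.10 to 0.14), and of 36 different-number pairs 5 did (r from -0.14 to 0.15). So few pairs cannot exclude pairing between some of the groups.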

Additional observations from a re-analysis of the deposited data

How the results depend on the processing

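Of 54 log2 fold changes of the 9 genes, 24 changed sign in at least 1 fit, and the cause was not tested. The counts of genes called over the whole table moved most. With an adjusted p below 0.05 they were 0 for tau on the control diet, 0 for tau on acetate, 541 for acetate in PBS mice, 3 for acetate in tau mice and 43 for the interaction, against 2, 20, 1303, 9 and 230. With DESeq2 they were 100 for tau on the control diet, 130 for tau on acetate (1 of the 9 genes, Ifit1), 167 for acetate in tau mice, 8 for tau over both diets and 472 for the interaction. Without the filter they were 37 for tau on acetate and 56 for acetate in tau mice, and with the 6 compared mice alone 35 for tau on the control diet and 2 for acetate in tau mice. The replicate block gave 9 for tau on the control diet and 349 for the interaction, turned Irf7 in the interaction to -0.071, and changed no call of the 9 genes. Without the filter Ifi27 for acetate in tau mice was 0.00035.

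Leaving out each mouse gave 0 to 16 genes called for tau on the control diet, 0 to 93 for tau on acetate (0 to 1 of the 9), 15 to 1425 for acetate in PBS mice, 1 to 66 for acetate in tau mice and 8 to 442 for the interaction. The lowest counts for acetate in PBS mice and for the interaction both came without acetate-fed PBS mouse 2. Medians of the 9 genes ran from 0.13 to 0.86 for tau on acetate, -0.063 to 0.72 for acetate in tau mice and 0.14 to 0.94 for the interaction. Log2 fold changes that changed sign were, for tau on the control diet, Ifit1 -0.31 to 0.087, Ifit3 -0.26 to 0.096, Ifi27 -0.079 to 0.12, Isg15 -0.17 to 0.72, Oasl2 -0.46 to 0.0042 and Ifitm3 -0.29 to 0.089. For tau on acetate they were Irf7 -0.17 to 0.82 and Oasl2 -0.16 to 0.74. For acetate in PBS mice they were Ifit3 -0.25 to 0.038, Ifi27 -0.031 to 0.18, Isg15 -0.77 to 0.30 and Bst2 -0.26 to 0.032. For acetate in tau mice they were Ifi27 -0.11 to 0.062, Isg15 -0.14 to 0.73, Irf7 -0.39 to 0.67, Oasl2 -0.21 to 0.72, Bst2 -0.46 to 0.30 and Ifitm3 -0.063 to 0.53. For tau over both diets they were Ifi27 -0.068 to 0.031 and Oasl2 -0.16 to 0.29, and for the interaction Ifi27 -0.18 to 0.022, Irf7 -0.64 to 0.42, Oasl2 -0.0045 to 0.93 and Bst2 -0.38 to 0.38. Depth limits Isg15, Usp18 and Irf7 most, with 6, 8 and 14 counts in their lowest mouse.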
